A study of Caenorhabditis elegans with 2 samples.

Results

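The binding of CHD-7, a chromodomain helicase of the family that remodels nucleosomes, was described at 10 genes of the dauer pathway of C. elegans. The genes were daf-7, daf-1, daf-8, daf-14, daf-3 and daf-5 of the TGF-beta branch, daf-2 and daf-16 of the insulin branch, and daf-9 and daf-12 of the steroid hormone branch. They were taken by name, with earlier results of these data known, as 10 of 19973 annotated protein-coding genes. Every peak whose summit lay in the gene or within 10 kb of either end was kept. This gave 18 of the 1884 reproducible peaks and 166 of the 30000 pooled candidate peaks. The data were ChIP-seq peak lists from whole worms of strain OP609, genotype unc-119(tm4063) III with the insertion wgIs609, which carries CHD-7 fused to eGFP. Worms were of mixed sex and were collected as young adults, 67 hours after synchronisation from starved L1 larvae obtained by bleaching. Chromatin was sheared with a sonicator microtip and precipitated with an antibody against GFP, in 2 biological replicates. The transgene and the unc-119 allele were shared by both replicates, and no strain without the fusion was analysed here. Only 1 group was available, so no change between conditions could be measured and no test was made.

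The dauer larva is an arrested, stress-resistant stage that C. elegans enters in place of the third larval stage when food is short, worms are crowded or temperature is high. In favourable conditions the TGF-beta ligand DAF-7 and insulin-like peptides signal through their receptors, the SMADs DAF-8 and DAF-14 oppose the dauer-promoting pair DAF-3 and DAF-5, and the FOXO factor DAF-16 is kept out of the nucleus. Both branches converge on DAF-9, a cytochrome P450 that makes the dafachronic acid hormones, and on their nuclear receptor DAF-12, which also acts in adult lifespan.

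The strongest reproducible peaks inside dauer genes lay in introns, and 4 of the 151-base windows centred on the summits are shown because they carry the motif results given further on. They come from the first introns of daf-5, daf-14 and daf-12 and from the region upstream of daf-14. All are written on the strand of the dauer gene, 5′ to 3′, from the WBcel235 sequence, which is that of ce11. Capitals mark matches to GTCTAGAC (a palindromic SMAD element), CACGTG (an E-box), AGTGCA (a hexamer bound by DAF-12) or GAGAGA on either strand. The daf-5 window is chrII:14040407-14040557, minus strand, and the daf-12 window is chrX:10637551-10637701, plus strand. The daf-14 windows, both on the plus strand, are chrIV:10252433-10252583 in intron 1 and chrIV:10245768-10245918 upstream of the gene.
daf-5 intron 1: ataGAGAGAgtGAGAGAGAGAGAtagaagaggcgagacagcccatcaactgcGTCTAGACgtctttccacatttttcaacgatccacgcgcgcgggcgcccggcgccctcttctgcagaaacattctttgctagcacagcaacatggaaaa
daf-14 intron 1: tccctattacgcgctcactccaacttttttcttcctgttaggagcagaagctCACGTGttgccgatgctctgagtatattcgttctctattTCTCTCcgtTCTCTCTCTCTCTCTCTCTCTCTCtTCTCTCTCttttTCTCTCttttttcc
daf-14 upstream: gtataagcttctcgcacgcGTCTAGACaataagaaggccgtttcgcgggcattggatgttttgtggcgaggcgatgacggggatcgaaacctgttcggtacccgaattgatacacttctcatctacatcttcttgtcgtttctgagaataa
daf-12 intron 1: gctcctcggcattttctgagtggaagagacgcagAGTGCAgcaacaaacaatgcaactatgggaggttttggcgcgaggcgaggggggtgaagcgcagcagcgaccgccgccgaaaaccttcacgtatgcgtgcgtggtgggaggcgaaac
The SMAD element began 23 bases before the summit in the daf-5 intron and 56 bases before it upstream of daf-14. The daf-14 intron window held an E-box that began 23 bases before the summit, followed by a stretch of T and C in which the longest strictly alternating run of the pair had 25 bases.

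Peak signal is the value that the authors' peak caller gave each peak, and it ranks peaks only within a list. Reproducible peaks ranged from 166 to 5232 in pooled signal, with a median of 216. These peaks coincide with the top 1884 pooled entries, which makes a reproducible peak here one whose pooled signal reached that floor. Read counts were not part of the files, and the sequencing depth behind these values is therefore unknown. Entries of replicate 1 ranged from 31.7 to 3774 in signal and those of replicate 2 from 23.8 to 1495. The highest 1884 entries of a list reached down to a signal of 94.0 in replicate 1 and 85.0 in replicate 2. Each replicate list holds 30000 entries.

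Of the 10 dauer genes, 6 had at least 1 reproducible summit in the gene or within 10 kb, against 29.1% of all protein-coding genes. These were daf-1, daf-14, daf-5, daf-16, daf-9 and daf-12. Inside the gene itself, 4 of 10 had one (daf-14, daf-5, daf-16 and daf-12), against 3.61% of all genes. Dauer genes range from 1.93 kb for daf-7 to 46.3 kb for daf-2, and longer genes offer more room for a summit. Over the 350 kb of sequence searched, the dauer genes had 0.51 reproducible and 4.74 pooled summits per 10 kb, against 0.19 and 2.99 over the genome. Of the pooled candidates at dauer genes, 18 of 166 (10.8%) were reproducible, against 6.28% of all pooled candidates.

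**Figure D1:**
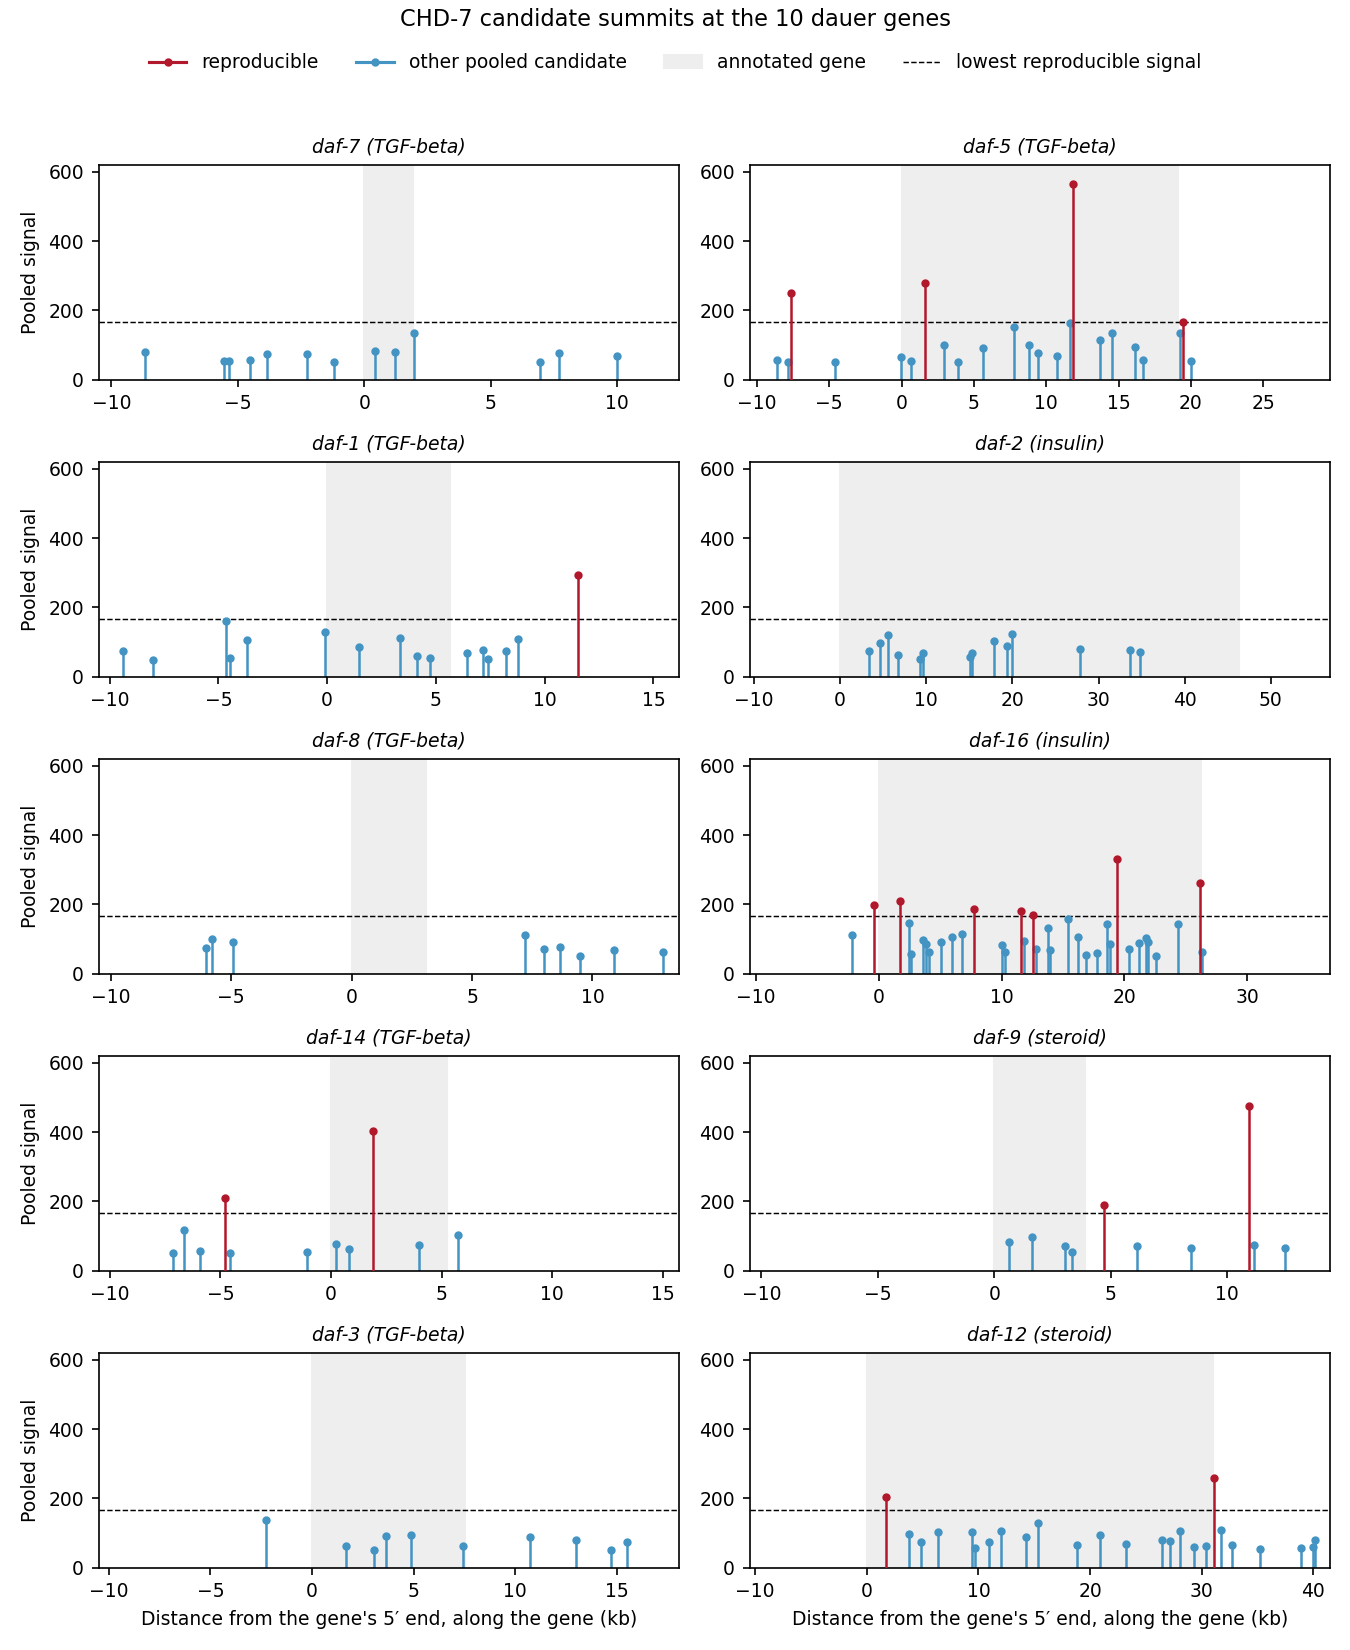
Pooled signal (vertical axis) of every candidate summit against its distance in kb from the 5′ end of the gene (horizontal axis) at each of the 10 dauer genes, with reproducible summits in red, other pooled candidates in blue, the gene shaded and the lowest reproducible signal of 166 dashed. The highest red summits are at daf-5 (564), daf-9 (474) and daf-14 (403), daf-16 has 7, and daf-7, daf-8, daf-3 and daf-2 have none.

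By the signal of the highest candidate alone, the SMAD gene daf-8 and the ligand gene were lowest in the TGF-beta branch, with daf-3 next at 139. No reproducible summit lay within 10 kb of daf-7, which encodes the ligand made by sensory neurons. Its highest candidate, 30 bp past the 3′ end of the gene, had a pooled signal of 135 and ranked 3182 of 30000, with rank 6538 in replicate 1 and 3342 in replicate 2. That is below the reproducible floor, although 13 candidates fell in the daf-7 window. At daf-8, no candidate lay in the gene at all. The highest of its 9 had a signal of 112, lay 92 bp upstream of the neighbouring gene rskn-1, was absent from replicate 1 and ranked 21159 in replicate 2.

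The type I receptor gene daf-1 had 1 reproducible summit, 5880 bp past its 3′ end, with a pooled signal of 295 and rank 452. It ranked 633 in replicate 1 and 453 in replicate 2. This summit lay in an intron of the collagen gene col-99 and 20 bp from a tRNA gene (WBGene00023019), with the non-coding RNA gene F29C4.12 also within 100 bp, so it is not tied to daf-1 by position. At the promoter of daf-1 itself a candidate 76 bp upstream of the 5′ end reached a signal of 130 and rank 3548, with ranks 3609 and 3993 in replicates 1 and 2. That candidate stood at a similar place in both lists, below the reproducible floor.

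At daf-14, a SMAD gene, the summit was internal and among the stronger ones at dauer genes. It lay in intron 1 of 5, which spans 2888 bp, 1881 bp from the 5′ end of the longer transcript F01G10.8b.1 and 1158 bp upstream of the start of the shorter F01G10.8a.1. Its pooled signal was 403 and its rank 213, with rank 200 (signal 208) in replicate 1 and 253 (signal 193) in replicate 2. Both replicates placed it far inside their highest 1884 entries. The second daf-14 summit, at 4784 bp upstream, had a pooled signal of 210 and lay 317 bp upstream of another gene, F01G10.10. It ranked 1157 in replicate 1 and 1439 in replicate 2. Neither transcript start of daf-14 had a pooled candidate summit in its promoter window, set here as 1000 bp upstream to 200 bp downstream of the 5′ end. One summit, 241 bp downstream of the start of F01G10.8b.1 with a signal of 78.7, lay just outside, and its interval reached into the window.

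The 2 genes whose products act together against the TGF-beta signal stood apart in their peaks. No reproducible summit was found at daf-3, the SMAD gene. Its highest candidate, 2263 bp upstream, had a signal of 139 and rank 2950, with ranks 4913 and 3186 in replicates 1 and 2, and its nearest 5′ end was that of wdr-54. At daf-5, the Sno/Ski partner, 4 reproducible summits were counted, and 1 of them was the strongest at any dauer gene. That summit had a pooled signal of 564 and rank 78, with rank 127 (signal 254) in replicate 1 and rank 55 (signal 326) in replicate 2. It lay in intron 1 of transcript W01G7.1.2, 11822 bp from the 5′ end and 2761 bp upstream of the start of W01G7.1.1, which begins within the gene.

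A second summit in the same daf-5 intron, 1604 bp from the 5′ end, had a pooled signal of 279, rank 994 in replicate 1 and rank 554 in replicate 2. Intron 1 spans 14.4 kb, 75.7% of the gene, and held 13 pooled candidates, of which these were the reproducible ones. The other reproducible daf-5 summits were outside the gene. The upstream one, 7633 bp away with a signal of 250, lay 148 bp upstream of rpb-11, which encodes an RNA polymerase II subunit, and ranked 1658 in replicate 1 and 450 in replicate 2. The downstream one, 380 bp past the 3′ end with a signal of 168, was the weakest at a dauer gene, and its ranks were 1893 and 1727 in replicates 1 and 2. The strongest candidate at a dauer gene that missed the reproducible list was also at daf-5, 11619 bp from the 5′ end, with a signal of 163. Its interval overlapped that of the strongest daf-5 peak, with a signal of 564.

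In the insulin branch the receptor gene had no reproducible summit, whereas the gene of the transcription factor had 7. The receptor gene daf-2 is the longest of the 10 and had 14 pooled candidates, 2.11 per 10 kb, the lowest density among the dauer genes. Its highest candidate, in intron 3 of 18, had a signal of 125 and ranked 3439 in replicate 1 and 23716 in replicate 2. The next, in intron 1, had a signal of 122 and ranked 5851 and 5886 in replicates 1 and 2. Among the 11 genes at least as long as daf-2, daf-2 included, the median number of pooled candidates was 27 and no gene had more than 2 reproducible summits. Candidate intervals covered 11.2% of daf-2, against 11.1% of chromosomes.

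The FOXO gene daf-16 had the most summits of the 10, with 7 reproducible and 35 pooled ones, 7.57 pooled summits per 10 kb. On ce11 the gene spans chrI:10750498-10776703 on the plus strand, and 6 of the 7 reproducible summits lay in it. The first was 391 bp upstream of the 5′ end of transcript R13H8.1h.1, in an exon of the non-coding RNA H36N01.1 and within 100 bp of another, H36N01.4, with a pooled signal of 199. It ranked 6555 in replicate 1 (signal 64.4) and 751 in replicate 2 (signal 125), so replicate 1 placed it well below its highest 1884 entries.

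Intron 3 of daf-16 (counted in R13H8.1f.1), which spans 12.4 kb and is 47.3% of the gene, held 4 of the summits. At 1748 bp from the 5′ end the pooled signal was 211, with rank 828 in replicate 1. In replicate 2 the entry with the nearest summit ranked 15249, while a stronger entry overlapping the same interval ranked 1341. At 7765 bp the pooled signal was 187, with ranks 2951 and 1437 in replicates 1 and 2. At 11575 bp it was 180, with ranks 1294 and 4401. The last one, at 12576 bp, had a pooled signal of 169, with ranks 1292 and 3600, and lay 29 bp upstream of the start of R13H8.1b.1 and R13H8.1c.1. The last 2 were thus higher in the list of replicate 1.

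The strongest daf-16 summits were toward the 3′ side of the gene. In intron 6, of 7676 bp, a summit at 19434 bp had a pooled signal of 330 and rank 346. It lay 1576 bp upstream of the start of R13H8.1a.1, one of the main isoforms, and ranked 385 in replicate 1 (signal 166) and 366 in replicate 2 (signal 167). The seventh summit, in the 3′ UTR at 26111 bp, had a pooled signal of 263 and ranked 693 and 477 in replicates 1 and 2. These were the daf-16 summits that both replicates placed among their highest 1884 entries by the nearest-summit rule. The summit at 1748 bp joined them when the strongest overlapping entry was used.

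**Figure D2:**
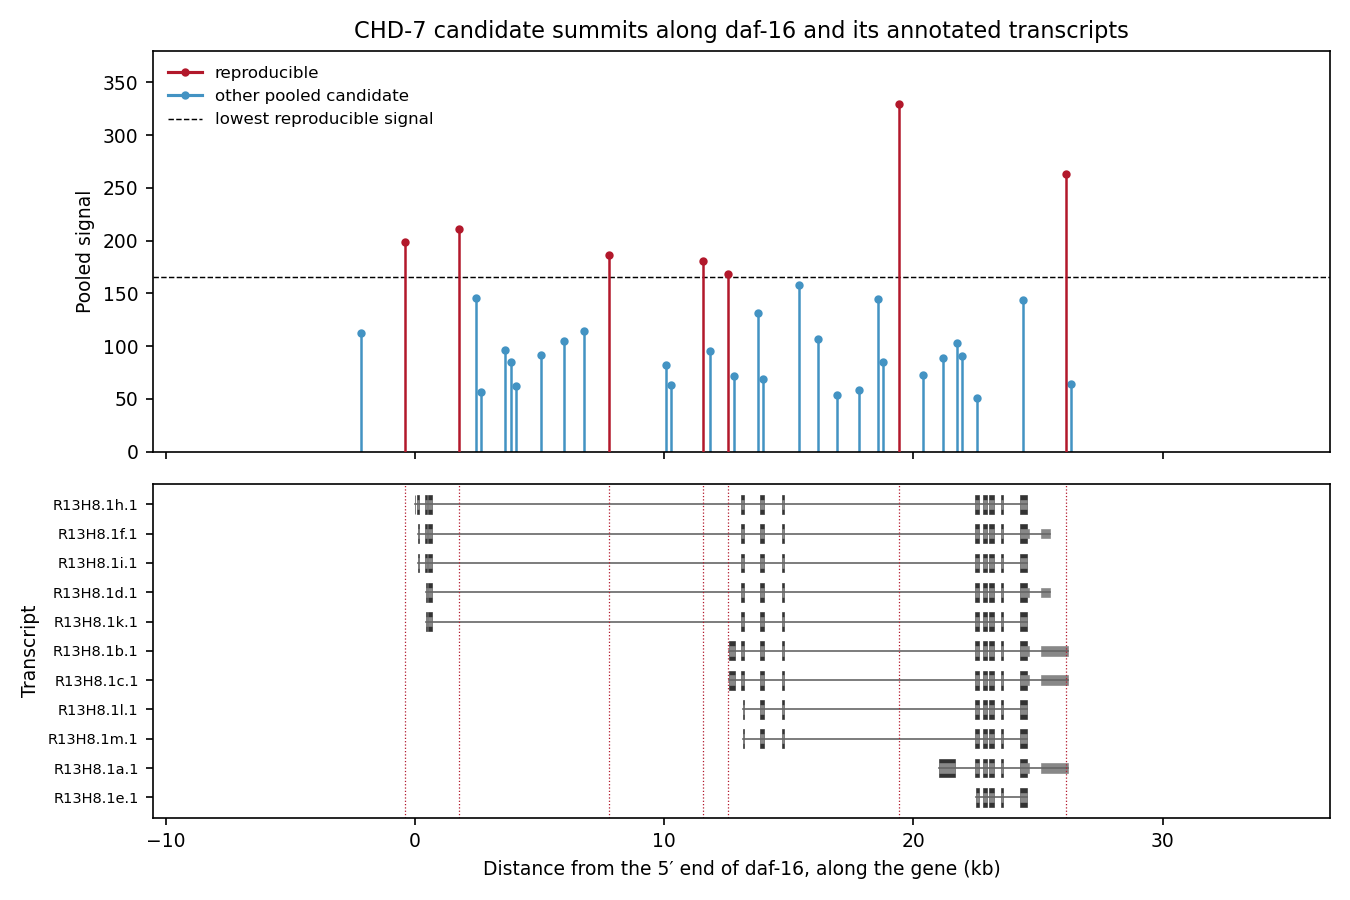
Upper panel, pooled signal (vertical axis) of each candidate summit against the distance in kb from the 5′ end of daf-16, with reproducible summits in red and other pooled candidates in blue. Lower panel, the 11 annotated protein-coding transcripts, with coding exons as tall dark boxes and other exon parts as low grey boxes, and dotted lines at the 7 reproducible summits: 4 stand in the long intron that precedes the start of R13H8.1b.1, and the highest, at 330, stands upstream of R13H8.1a.1.

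Of the 7 reproducible daf-16 summits, 2 lay in the promoter window of a transcript start. The others lay 1030 to 4840 bp from the nearest start. The 11 transcripts begin at 7 distinct positions, of which 5 had a reproducible summit in their promoter window and all 7 a pooled candidate. The first 3 starts, up to 462 bp apart, share the summit 391 bp upstream of the gene, and the starts of R13H8.1b.1 and R13H8.1l.1 share the summit at 12576 bp. Neither of these summits was among the highest 1884 entries of both replicates. By this measure daf-16 was the only 1 of the 10 dauer genes with a reproducible summit in a promoter window, where the share of all genes was 4.71%. Counting the window of any transcript start, pooled candidates stood in a promoter window of 7 of the 10, against 33.9% of all genes. Genes with more starts have more such windows. At daf-3, daf-2, daf-9 and daf-12 the windows with a candidate belonged to starts inside the gene, not to its outermost 5′ end. How far the number of starts accounts for this count was not tested.

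The number of reproducible summits at daf-16 was also set beside that at other long genes. In all, 24 genes at 9 separate loci had at least 7 reproducible summits in the same kind of window. Among the 93 genes at least as long as daf-16 (itself included), daf-16 had 7 and the next highest had 4, with a median of 0, and 39 of the 93 had any. Of the 198 genes of at least 20 kb, the other genes with 5 or more were ppfr-1 and hlh-30 with 6 each, and ell-1 and lin-14 with 5 each. The gene ppfr-1, at 25.9 kb, is nearly as long as daf-16. Counted in each replicate's own highest 1884 entries, daf-16 held 6 in replicate 1 and 7 in replicate 2. These entries were not all at the same places. Of the 7 reproducible daf-16 summits, 2 were among them in both replicates, or 3 with the strongest overlapping entry.

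**Figure D3:**
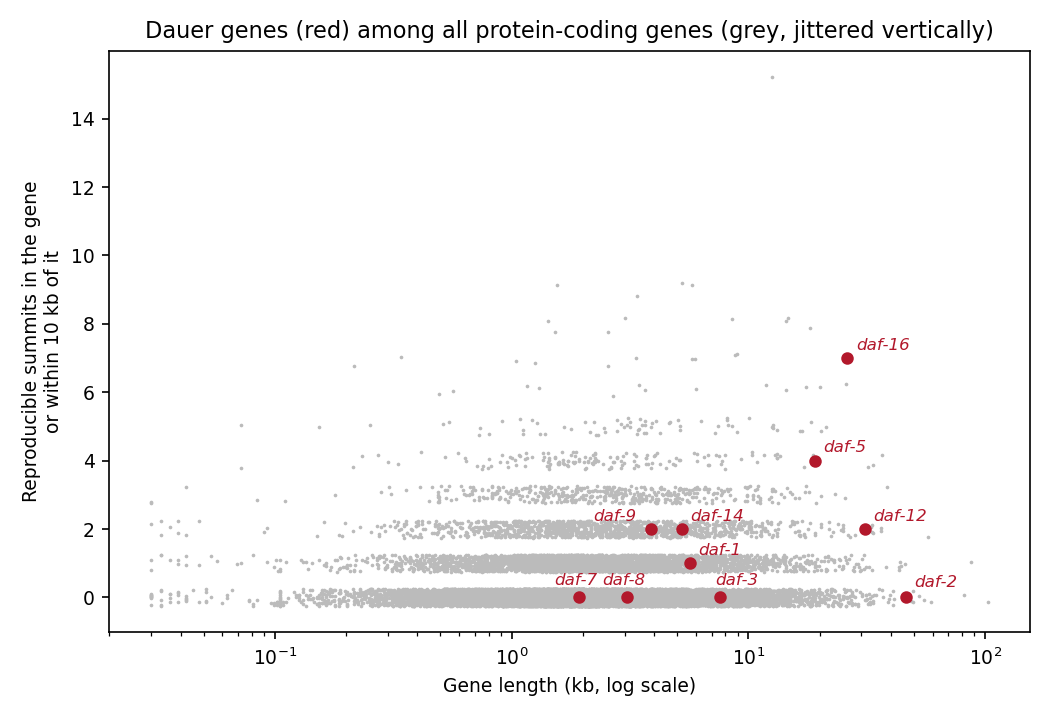
Number of reproducible summits in a gene or within 10 kb of it (vertical axis) against gene length in kb (horizontal axis, log scale), with the dauer genes in red and all other protein-coding genes in grey, shifted vertically at random so that points can be seen. At 26.2 kb daf-16 has 7 summits, daf-5 has 4 at 19.1 kb and daf-2 has 0 at 46.3 kb.

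In the steroid hormone branch the strongest summit was outside the gene it was counted for. At daf-9, which encodes the cytochrome P450, a summit 7045 bp past the 3′ end had a pooled signal of 474 and rank 128, and ranked 121 (signal 255) in replicate 1 and 168 (signal 225) in replicate 2. It lay in an exon of the non-coding RNA C14F11.14 and 181 bp upstream of the gene T13C5.6, whose 5′ end was the nearest. A weaker summit 802 bp past the end of daf-9, with the 5′ end of bca-1 nearest, had a signal of 190 and ranks 1428 and 1728. No reproducible summit lay in daf-9 itself, where 4 pooled candidates were counted.

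The nuclear receptor gene daf-12, 31.0 kb long, had 2 reproducible summits. The one in intron 1 of 18, at 1718 bp from the 5′ end, had a pooled signal of 205 and ranked 1164 and 1091 in replicates 1 and 2. Intron 3, the longest of the gene at 14.9 kb, held 7 pooled candidates and no reproducible one. The second summit, 169 bp past the 3′ end of the gene, fell in a tRNA gene (WBGene00014321), within 100 bp of the non-coding RNA gene F11A1.11, with a pooled signal of 260 and ranks 567 and 796. None of the 9 transcript starts of daf-12 had a reproducible summit in its promoter window, whereas 5 had a pooled candidate.

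Each of the 18 overlapped an entry in both replicates. Of all 1884 reproducible peaks, 1837 overlapped one in replicate 1 and 1878 in replicate 2. In each replicate 15 of the 18 were among the highest 1884 entries. Of all reproducible peaks, 1425 were in replicate 1 and 1424 in replicate 2. Of the 18, 12 (66.7%) were among the highest entries in both, against 1051 (55.8%) of all reproducible peaks. At daf-16, 2 of 7 were in both, or 3 with the strongest overlapping entry, and at the other dauer genes 10 of 11 were. The median rank of the dauer summits was 1076 in replicate 1 and 774 in replicate 2, against 949 and 1016 for all reproducible peaks. All ranks are of entries with at least 1 bp of overlap, and the nearest summit was taken.

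**Figure D4:**
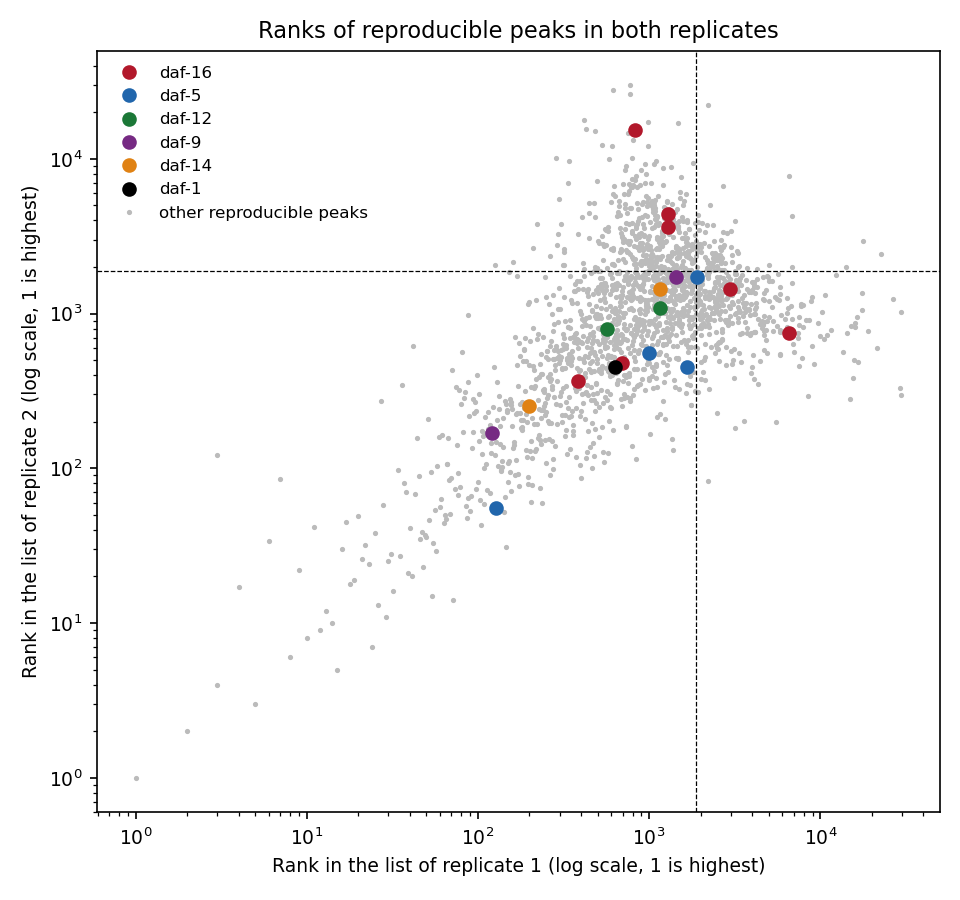
Rank of each reproducible peak in the list of replicate 1 (horizontal axis) against its rank in that of replicate 2 (vertical axis), both on log scales with 1 the highest, for the 18 dauer summits coloured by gene and all other reproducible peaks in grey, with dashed lines at rank 1884. The daf-9 summit at rank 121 is the highest of the dauer set in replicate 1 and the daf-5 summit at rank 55 the highest in replicate 2, and 5 daf-16 summits lie beyond a dashed line.

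By annotated position, 10 of the 18 summits (55.6%) fell in introns, against 20.2% of all reproducible peaks. None of the 18 fell in a coding exon, against 13.3% of all reproducible peaks, and 4 (22.2%) were intergenic, against 44.3%. The members' pooled candidates had 49.4% in introns and 27.1% in coding exons, against 24.8% and 40.6% of all pooled candidates. Of the 10 intron summits, 9 were in a dauer gene and 1 was in col-99. Long introns make up most of daf-5, daf-14, daf-16 and daf-12, and how far intron length accounts for these shares was not tested. Of the 18 summits, 4 (22.2%) lay within 100 bp of a non-coding RNA gene, against 27.4% of all reproducible peaks, and 2 (11.1%) within 100 bp of a tRNA gene, against 11.6%.

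**Figure D5:**
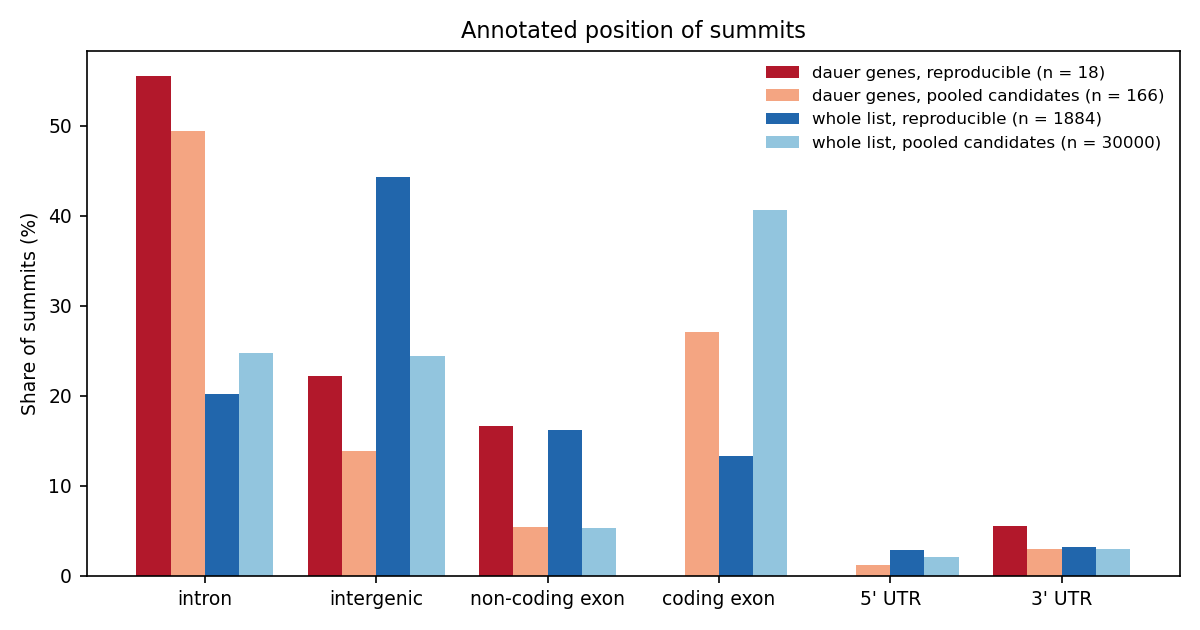
Share of summits in percent (vertical axis, from 0) by annotated position, for the dauer genes (red and orange bars) and the whole lists (dark and light blue bars), reproducible and pooled. Introns hold 55.6% of the dauer genes' reproducible summits against 20.2% of all reproducible peaks, and the dauer genes have no reproducible bar for coding exons because none of the 18 fell in one.

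Sequence matches were counted within 75 bp of each summit, on both strands. The SMAD element GTCTAGAC, which reads the same on both strands, was found at 2 of the 18 dauer summits, those in intron 1 of daf-5 and upstream of daf-14. The nearest 5′ end to the first is that of daf-5, whereas the second lies 317 bp from F01G10.10 and 4784 bp from daf-14. Only 4 of all 1884 reproducible windows (0.212%) and 30 of 30000 pooled windows (0.1%) held it, the other 2 reproducible ones being nearest vhp-1 and C07A9.9. Within 50 bp only the daf-5 window of all 1884 held it. The E-box CACGTG was at 3 of 18 (daf-1, daf-14 and daf-9), against 9.87% of reproducible and 5.23% of pooled windows. The hexamer GAGAGA was at 9 of 18, against 30.3% and 14.1%.

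Elements of the dauer pathway's own factors were also counted. The DAF-12 hexamer AGTGCA was at 5 of 18, both daf-12 summits and 3 at daf-16, against 7.33% of reproducible and 6.49% of pooled windows. Within 50 bp it was at 3 of 18, against 4.94% of reproducible windows. The DAF-16 element GTAAACA was at 1 of 18, the summit 391 bp upstream of daf-16, against 2.39% and 1.66%. The letters CTTATCA, which are the GATA site TGATAAG on the other strand, were at none of 18, against 3.72% and 3.13%. With wider windows, within 100 bp and within 150 bp, GTAAACA was at 2 and 3 of 18, against 3.45% and 4.67% of reproducible windows. At these widths CTTATCA was at 1 and 2 of 18, against 4.94% and 6.85%. The hexamer AGTGCA was at 5 and 6 of 18, against 9.71% and 13.3%. Windows at the dauer summits had a median GC content of 46.7%, with a range of 35.8% to 59.6%, against medians of 47.7% for reproducible and 43.7% for pooled windows. A match describes the letters only and does not show that a factor binds there.

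Other genes of dauer entry and its signals were counted in the same way, from 8 lists with 80 annotated genes. These lists, too, were chosen with earlier results of these data known. Of these, 28 had a reproducible summit in the gene or within 10 kb and 10 (12.5%) had one in a promoter window, against 29.1% and 4.71% of all genes. Among 17 regulators and partners of DAF-16, 8 (47.1%) had one in the gene or within 10 kb, against 29.1% of all genes. In a promoter window 5 (29.4%) had one, against 4.71%. The strongest was at ftt-2, which encodes a 14-3-3 protein that binds DAF-16, 556 bp upstream of its start, with a signal of 640 and rank 52, ranked 146 in replicate 1 and 31 in replicate 2. It lay in an exon of a non-coding RNA, F52D10.7. The gene hlh-30, encoding the worm TFEB-like factor, had 6, with the strongest promoter one 264 bp upstream of a start and a signal of 265. A second 14-3-3 gene, par-5, had one 177 bp upstream with a signal of 221, which lay in a non-coding exon, within 100 bp of the non-coding RNA genes M117.11 and M117.12 and nearest to the 5′ end of another gene, M117.3. The promoter windows of smk-1 and sir-2.1 held the others of the 5, named here to complete the count.

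Of 9 insulin signalling genes 6 (66.7%) had a reproducible summit in the gene or within 10 kb, against 29.1% of all genes. All of these lay outside the gene itself, where 0 of the 9 had one, against 3.61% of all genes. In a promoter window 1 of the 9 (11.1%) had one, against 4.71% of all genes. It was at akt-2, a kinase gene, 766 bp upstream with a signal of 211. The strongest of this list was at pptr-1, a phosphatase subunit gene, 1427 bp upstream of its start and so outside the promoter window, with a signal of 442 and ranks 180 and 176 in replicates 1 and 2. At the genes of this list other than akt-2 and pptr-1, every reproducible summit was nearest to the 5′ end of another gene. Of 12 ligand genes 2 (16.7%) had one, ins-7 and ins-17, below the share of all genes, and none in a promoter window. Of 13 DAF-16 target genes 4 (30.8%) had one, near the share of all genes, and of these hsp-12.3 and hsp-12.6 shared theirs. Those in promoter windows were at hsp-16.2, 187 bp upstream with a signal of 199 and nearest to hsp-16.41, and at dod-3, 167 bp upstream with a signal of 168. The dod-3 summit ranked 8258 in replicate 1 and 913 in replicate 2.

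Of 9 steroid branch genes 2 (22.2%) had a reproducible summit in the gene or within 10 kb, against 29.1% of all genes. They were emb-8 and din-1, which encodes a corepressor of DAF-12. The gene din-1 had 4, of which the strongest, 726 bp upstream of its start, had a signal of 495 and rank 112, with ranks 122 and 170 in replicates 1 and 2, and lay within 100 bp of the non-coding RNA gene ZK20.8. Of 6 genes of the TGF-beta branch and its modifiers, soc-1 alone (16.7%) had one, within 10 kb and in another gene. Of 8 matched genes for pheromone and cyclic GMP sensing 3 (37.5%) had one, srg-36, srg-37 and srbc-64, of which the srg genes shared theirs. Of 6 ciliary genes 2 (33.3%) had one, osm-6 and daf-19, the RFX factor gene. The daf-19 summit stood 176 bp upstream, with a signal of 202 and ranks 1038 and 1248.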

How the data were processed

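CHD-7 ChIP-seq peak lists of 2 biological replicates, which the labels number as separate samples, were used as deposited. Per the labels, lists were made on ce10 and ce11. The sources used here do not give the aligner, the peak caller, their versions or the cutoff for reproducibility. The control was not analysed here. The authors deposited a signal value per peak, and lists were ranked by it. The −log10 q-value that the authors deposited was tied at 3.43 for many peaks and was not used for ranking. Summits are the deposited start plus the deposited offset, written 1-based. Positions were set against the Ensembl release 115 annotation of WBcel235, the same sequence as ce11. The ce10 list served as a check by matching chromosome, width, offset and signal within 0.001%, with no coordinate converted. Members and gene lists were chosen with earlier results of these data known. All 10 members are named. Beside a summit given with values, a neighbour is named when its 5′ end is nearest or it is a non-coding RNA gene within 100 bp, and other dauer genes up to 3 by promoter signal and 2 more per list. No test was made, because there was 1 group. The counting steps were tested on simulated data. Python 3.11.15, pandas 2.3.3, numpy 2.4.6 and matplotlib 3.10.9 were used. Alternatives varied the flank, promoter window, interval, list and replicate, and, added after seeing the data, the width of the sequence window.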

Additional observations from a re-analysis of the deposited data

How the results depend on the processing

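Counting within the gene alone gave 10 reproducible summits and 98 pooled candidates, and the 942 reproducible peaks of highest signal gave 9 summits. A promoter window of 2000 bp upstream and 500 bp downstream gave 2 dauer genes with a reproducible summit in it, as did the peak interval in place of the summit. Among peaks in the highest 1884 entries of both replicates, an alternative chosen after seeing the data, 0 dauer genes had one. Leaving out each replicate in turn, that is using the highest entries of the other, gave 6 genes each time, 16 to 21 summits and 1 gene with a promoter summit each time. Counts of dauer genes with a reproducible summit and of their summits stayed within 1.5 times with flanks of 5 kb or 2 kb. The same held with the interval in place of the summit and with the nearest 5′ end (4 genes). It also held with the ce10 list and without summits near non-coding RNA genes, alternatives that were not planned. The replicate 2 rank of the daf-16 summit at 1748 bp was 1341 with the strongest overlapping entry, against 15249. Depth is unknown, since the files hold no counts. No paired analysis was possible because there was 1 group.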
